A study of Homo sapiens with 10 samples.

Results

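The 39 genes described here encode the proteins of phototransduction and the visual cycle, the machinery by which rods and cones turn light into an electrical signal and renew their chromophore. They were chosen by name, as the rows of the count files whose Ensembl identifier maps to the symbol, and all 39 had a row among 57820 gene identifiers. Of these, 31 had enough reads to be tested among 16006 genes, and 8 (GNAT1, PDE6G, CNGA3, GUCY2F, GRK1, GRK7, RGS9 and RDH8) did not. By the division used here, 10 are components of rods, 11 of cones and 18 of both cell types.

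Their transcripts were read by poly(A) RNA sequencing of D425 and HD-MB03, cell lines of Group 3 medulloblastoma, a cerebellar tumour of childhood known for transcribing photoreceptor genes outside the eye. Stable polyclonal populations carried the lentiviral vector Tet-pLKO-puro, with a hairpin RNA against CRX (shCRX) or empty, and parental cells served as a further control. The study used a pair of hairpins, the labels do not say which library carries which, and every library has the same treatment note of doxycycline at 4 µg/ml over 72 h. D425 was represented by 3 shCRX libraries, set against 2 parental and 1 empty-vector library as controls, and HD-MB03 by 2 shCRX libraries, set against 1 parental and 1 empty-vector library. The hairpins target CRX, a homeodomain protein that drives transcription in photoreceptors and pinealocytes. The comparisons asked which of the 39 genes change when it is targeted, and how the lines differ.

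In a photoreceptor, an activated opsin releases the alpha subunit of transducin, which activates the phosphodiesterase PDE6. The fall in cyclic GMP closes cyclic nucleotide-gated channels. Opsin kinases, arrestins and the RGS9 complex end the response, while guanylate cyclases and their calcium-sensing activators restore cyclic GMP. Rods and cones use different paralogs at most of these steps. CRX binds near many photoreceptor genes, and the letters TAATCC are a core that it recognises.

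Between 1.96 and 18.06 M reads were counted in genes per library. The HD-MB03 controls were the shallowest (2.08 M parental, 1.96 M vector). Of their reads, 30.9% and 26.4% did not align, against 4.54% to 7.99% in the other libraries. Levels are given as CPM, read counts scaled by the effective library size, and 3 counts, the limit that a count of 0 allows, correspond to 1.53 CPM in the shallowest library and 0.166 CPM in the deepest. The libraries also carry running numbers whose meaning the labels do not give. D425 shCRX libraries (20 to 49) and HD-MB03 controls (60 and 62) form a low set, and D425 controls (117 to 136) and HD-MB03 libraries labelled shCRX (110 and 111) a high set, so that within a line this number and the arm cannot be told apart. The 8 Group 3 marker genes summed to between 3167 and 8888 CPM in every library, with MYC alone at group means of 1619 to 4582 CPM. The sum was lower in D425 shCRX without overlap, at 3167, 4477 and 4840 CPM, against 6541, 6501 and 5887 CPM in D425 controls. Of the 8, NPR3 had 0 reads in D425 shCRX, and NPR3 and MAB21L2 had 0 in HD-MB03 controls. The 6 fibroblast markers summed to between 4.68 and 16.6 CPM. Of the 6 pinealocyte markers, 4 reached 1 CPM on average in every group, among them GNGT1 and GNGT2, which are also genes of this report, and ASMT, which makes melatonin, was at 0.

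Promoter windows of 3 genes that fell in D425 (below) are printed. These genes fell in the same libraries, and their windows differ in whether they hold TAATCC. The windows are from RefSeq (GRCh38.p14) and run 5′ to 3′ on the strand of the gene, with TAATCC in capitals. Each spans 250 bases before to 50 bases after an annotated start. The PDE6A window is chr5:149944744-149945043 on the minus strand, with the match beginning at position -72 from the start. The PDC window is chr1:186461065-186461364 on the minus strand, and the GNGT1 window is chr7:93906317-93906616 on the plus strand.
PDE6A: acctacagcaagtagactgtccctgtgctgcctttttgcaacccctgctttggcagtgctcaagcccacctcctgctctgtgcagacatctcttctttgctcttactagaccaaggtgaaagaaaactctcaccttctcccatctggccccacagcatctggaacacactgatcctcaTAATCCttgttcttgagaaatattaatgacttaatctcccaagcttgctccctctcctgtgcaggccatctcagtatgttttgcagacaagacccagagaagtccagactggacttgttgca
PDC: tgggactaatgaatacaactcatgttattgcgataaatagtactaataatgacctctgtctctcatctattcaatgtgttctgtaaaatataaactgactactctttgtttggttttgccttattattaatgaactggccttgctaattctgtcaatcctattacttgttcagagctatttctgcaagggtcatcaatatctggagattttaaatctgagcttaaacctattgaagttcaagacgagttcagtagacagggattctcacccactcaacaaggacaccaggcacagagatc
GNGT1: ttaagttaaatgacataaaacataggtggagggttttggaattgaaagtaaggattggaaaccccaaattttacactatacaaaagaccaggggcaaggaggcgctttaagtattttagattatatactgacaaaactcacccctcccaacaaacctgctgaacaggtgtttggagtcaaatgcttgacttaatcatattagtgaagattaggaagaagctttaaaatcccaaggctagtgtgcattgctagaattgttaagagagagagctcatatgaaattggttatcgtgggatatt
The PDE6A window held TAATCC once, and the windows of PDC and GNGT1 held it on neither strand. Of the 39 genes, 30 had at least 1 window in the RefSeq table, and 7 of these (23.3%) held TAATCC on either strand: CNGB1, GUCA1A, GUCY2F, OPN1SW, PDE6A, PDE6C and SAG. Among all 27305 genes of the table the share was 7.81%. By window, 7 of 38 (18.4%) of these genes held it, against 6.36% of all 35116 windows. A match describes the letters of the window only. Variants of TAATCC were not counted, so a window without it may hold other letters that CRX recognises. CNGB3, GNB3, GNGT2, PDE6G, RDH12, ABCA4, AIPL1, RCVRN and GUCA1B had no entry.

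The targeted gene went against its label in HD-MB03. CRX had 20.3, 20.9 and 25.3 CPM in D425 shCRX replicates 1 to 3, against 47.5, 29.7 and 64.9 CPM in D425 parental replicates 1 and 2 and the vector library. The groups did not overlap, and CRX fell, at -1.10 ± 0.26 on the log2 scale (SE), with an edgeR adjusted p of 0.0436. In HD-MB03 it had 27.7 and 23.5 CPM in the libraries labelled shCRX, against 12.5 and 12.3 CPM in the parental and vector libraries (log2 fold change 1.04 ± 0.36, adjusted p = 0.174), so the libraries labelled shCRX held more CRX transcript. The D425 call was lost in 16 of 22 alternative analyses, with log2 fold changes between -1.56 and -0.81. HD-MB03 values below are therefore those of libraries labelled shCRX, with no direction of CRX implied.

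In D425, 4 of the 31 tested genes fell with shCRX and 0 rose, where a gene passed at an edgeR adjusted p under 0.05 over all 16006 genes. They were PDC, which encodes phosducin, a protein that binds the transducin beta and gamma subunits, GUCA1B, a calcium-sensing activator of guanylate cyclase, GNGT1, the gamma subunit of rod transducin, and PDE6A, the catalytic alpha subunit of the rod phosphodiesterase. The share was 12.9%, against 2.97% of all genes tested in either direction (1.61% higher and 1.37% lower). The median log2 fold change of the 31 was -0.37 (all genes 0.02), and 11 of 31 (35.5%) had a positive value, against 51.8% of all genes. In 9 of 31 the shCRX libraries all lay below the controls and in 2 (GNB1 and PDE6B) above, against 11.5% of all genes in each direction. In RNA from whole cultures, fewer cells with a transcript and less of it per cell cannot be told apart.

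**Figure D1:**
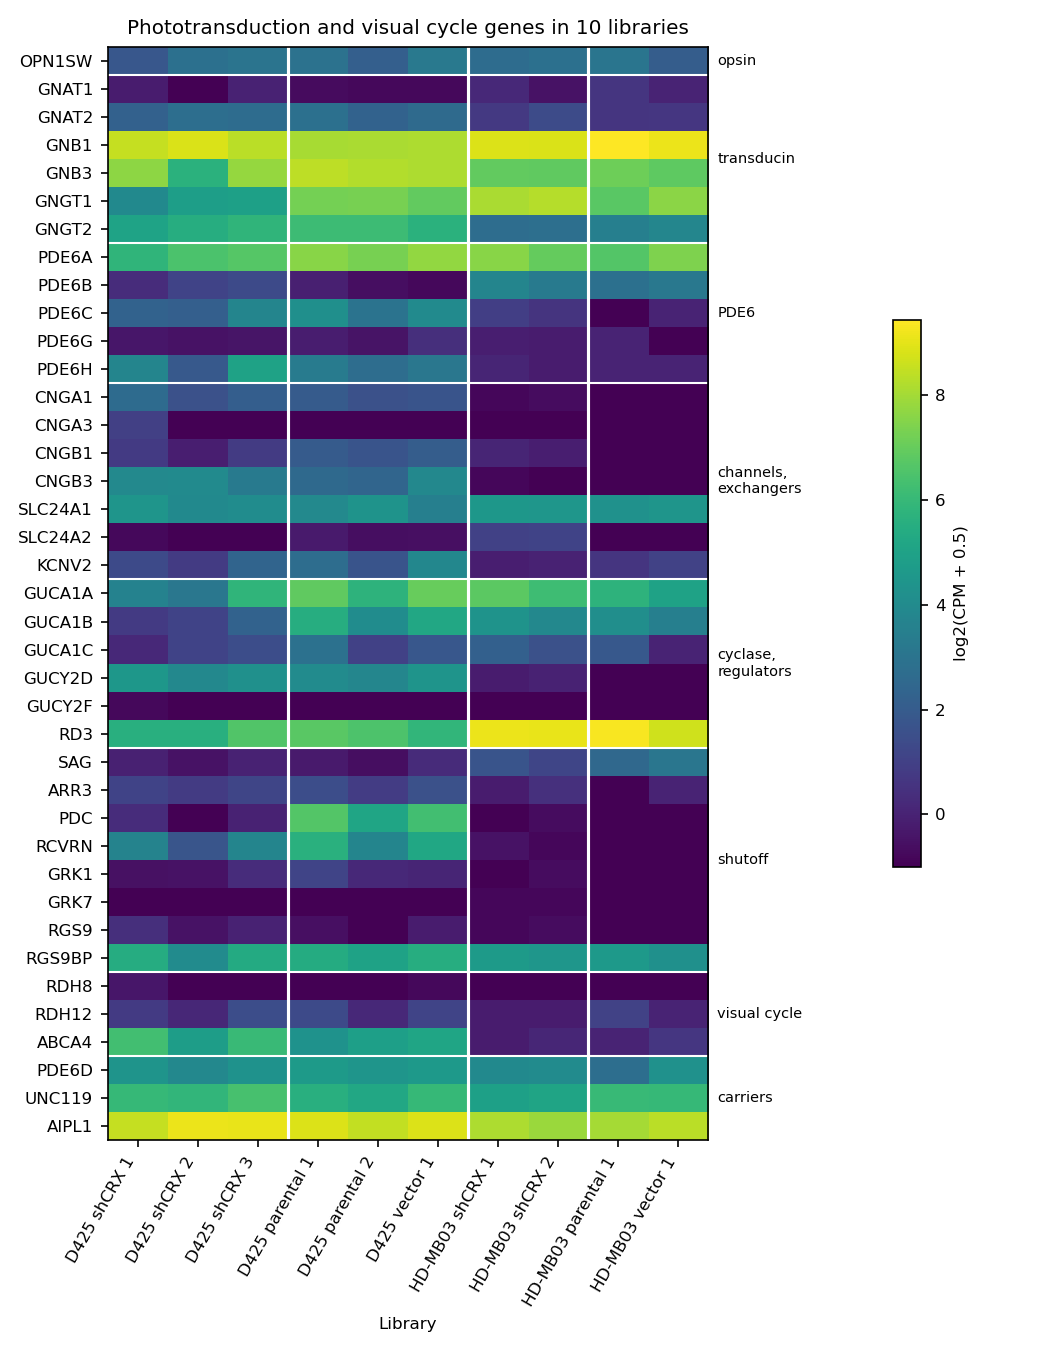
Level of each of the 39 genes (rows, grouped by role) in the 10 libraries (columns), as log2 of CPM plus 0.5. PDC and GNGT1 are darker in D425 shCRX than in D425 control libraries, and several channel, cyclase and shutoff genes are at the bottom of the scale in all HD-MB03 libraries.

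The fall of PDC was the steepest among the 31. PDC had 0.738, 0 and 0.512 CPM in D425 shCRX replicates 1 to 3 (8, 0 and 2 reads), against 99.7, 35.1 and 78 CPM in parental replicates 1 and 2 and the vector library. Every control library stood far above every shCRX library, and the log2 fold change was -7.13 ± 0.63 (adjusted p = 0.000585). In HD-MB03, PDC was at or near 0 in all libraries, with 2 reads in libraries labelled shCRX and 0 in controls.

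Among the transducin genes, GNGT1 had 15.1, 28.5 and 30.2 CPM in D425 shCRX, against 154, 156 and 123 CPM in D425 controls, in the same order of libraries. The control libraries were close together and all above the shCRX libraries, with a log2 fold change of -2.58 ± 0.29 (adjusted p = 0.000934). GNGT2, its cone counterpart, had 32.9, 44.3 and 57 CPM in shCRX, against 71.4, 71.3 and 50.4 CPM in controls (log2 fold change -0.53 ± 0.23, adjusted p = 0.253), and the groups overlapped. GNB3, the cone beta subunit, had 203, 50.3 and 217 CPM in shCRX, against 338, 301 and 285 CPM in controls (-0.97 ± 0.40, adjusted p = 0.228). All 3 shCRX libraries were below the controls, replicate 2 by much the most. GNB1, the beta subunit of rod transducin that many other cell types also transcribe, had 370, 459 and 323 CPM in shCRX, against 269, 277 and 284 CPM in controls (0.47 ± 0.18, adjusted p = 0.191). GNAT2, the cone alpha subunit, lay between 4.25 and 6.41 CPM in shCRX and between 4.36 and 6.66 CPM in controls. All exonic bases of GNAT2 are overlapped by opposite-strand genes in the annotation used, and the strand setting of the counts is not given in the sources used here, so its reads are uncertain. The same doubt touches part of the exon bases of RGS9BP (28.1%), GUCY2D (25.7%), RDH12 (22.8%), GNB3 (15.97%), PDE6B (14.0%) and RD3 (11.5%), and under 10% of those of SLC24A1, GNGT2, PDE6D and GNGT1. GNAT1, the rod alpha subunit, had 10 reads in D425 and 15 in HD-MB03.

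PDE6A had 57.1, 88.7 and 101 CPM in D425 shCRX, against 192, 157 and 215 CPM in controls, without overlap. Its log2 fold change of -1.20 ± 0.27 (adjusted p = 0.0344) was the smallest of the 4 that passed and lost the call in 9 of 22 alternatives. Leaving out any D425 library other than parental replicate 2 ended the call, with values from -1.40 to -1.0 over the libraries left out. The other rod catalytic subunit, PDE6B, was low: 0.738, 1.65 and 2.05 CPM in shCRX (8 reads each), against 0.448, 0.161 and 0.0909 CPM in controls (8, 2 and 1 reads). The shCRX libraries lay above the controls, with a log2 fold change of 2.37 ± 0.61 that did not pass (adjusted p = 0.0574) and passed in 5 of 22 alternatives. PDE6C, the cone catalytic subunit, had 4.43, 3.93 and 12.8 CPM in shCRX, against 18.1, 7.42 and 15.5 CPM in controls (-1.0 ± 0.48, adjusted p = 0.316), and PDE6H, the cone inhibitory subunit, 12.8, 3.31 and 31.5 CPM, against 9.52, 6.21 and 8.36 CPM (0.96 ± 0.56, adjusted p = 0.415). Both overlapped between the arms, and PDE6H spread more among shCRX libraries than between the arms. PDE6G, the rod inhibitory subunit, had 5 reads in shCRX and 19 in control libraries.

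Of the guanylate cyclase group, GUCA1B had 1.2, 1.65 and 4.35 CPM in D425 shCRX, against 44.2, 16.4 and 37.4 CPM in controls. The highest shCRX library stood below the lowest control, with a log2 fold change of -3.91 ± 0.50 (adjusted p = 0.00216). GUCA1A, a further activator, had 12, 8.27 and 56.5 CPM in shCRX, against 118, 53.9 and 129 CPM in controls. Replicate 3 overlapped the controls, and the log2 fold change of -2.01 ± 0.60 did not pass (adjusted p = 0.102). Without shCRX replicate 3 it was -3.30 and passed. In the annotation used, 29.4% of the GUCA1A exon bases overlap a gene on the same strand, so part of its reads could be counted elsewhere. GUCA1C, the third activator, had 24 reads in shCRX and 177 in control libraries (-1.46 ± 0.67, adjusted p = 0.289). GUCY2D, the cyclase itself, lay between 14.3 and 22.6 CPM in shCRX and between 13.2 and 20.4 CPM in controls (0.16 ± 0.28, 95% interval -0.45 to 0.78). RD3, which traffics and inhibits the cyclases, had 47.4, 47.4 and 96.2 CPM in shCRX, against 109, 90.1 and 58.3 CPM in controls (-0.44 ± 0.31, adjusted p = 0.511). GUCY2F, the other cyclase, had 1 read in all.

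**Figure D2:**
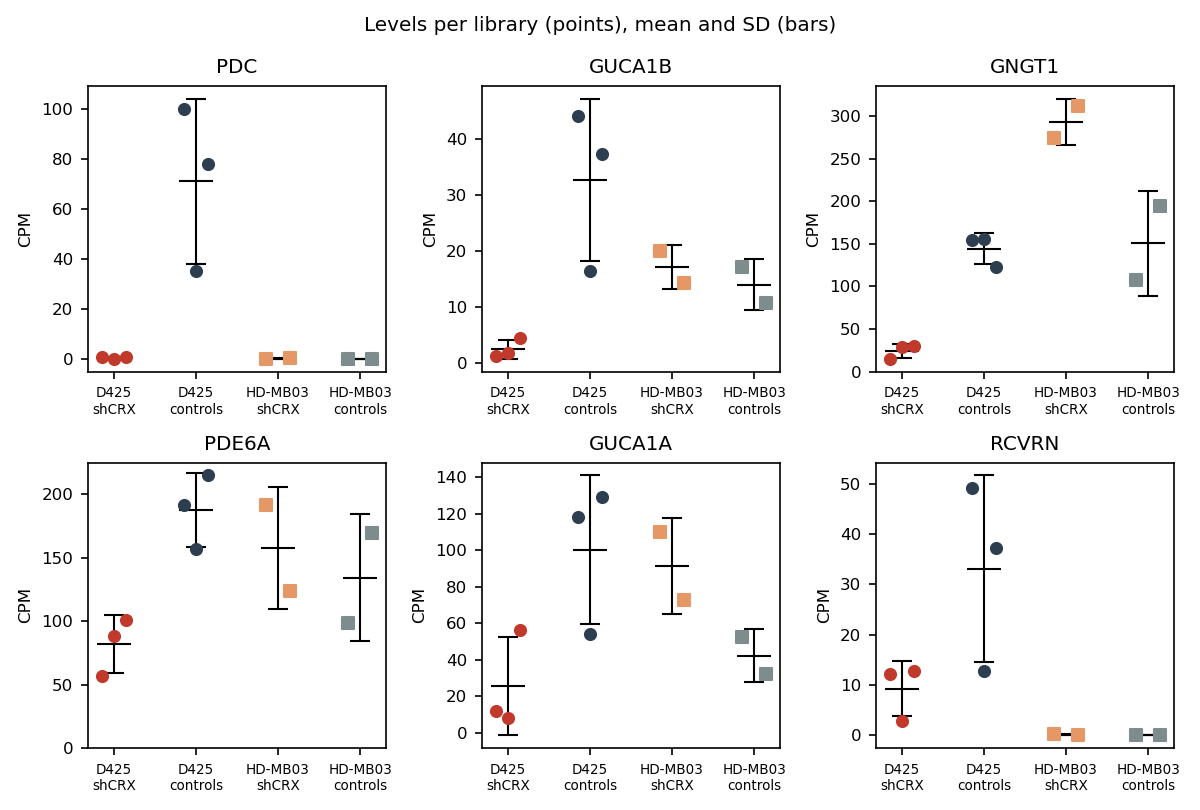
CPM of 6 genes in each library (points) by line and arm, with the mean and SD of the group (bars). PDC, GUCA1B, GNGT1 and PDE6A are lower in all D425 shCRX than in all D425 control libraries, GUCA1A overlaps through shCRX replicate 3, and PDC and RCVRN are at or near 0 CPM in HD-MB03.

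The remaining shutoff genes did not pass in D425. RCVRN, recoverin, a calcium sensor that restrains opsin kinase, had 12.2, 2.9 and 12.8 CPM in shCRX, against 49.2, 12.8 and 37.2 CPM in controls. The groups only just did not overlap, with 12.8 CPM in both shCRX replicate 3 and parental replicate 2 after rounding, and the log2 fold change was -1.82 ± 0.56 (adjusted p = 0.117). Without parental replicate 2 it was -2.24 and passed. RGS9BP, the membrane anchor of RGS9, had 43.8, 15.7 and 40.7 CPM in shCRX, against 42.4, 32 and 45.4 CPM in controls (-0.25 ± 0.31, adjusted p = 0.747). The arrestins were scarce, with 31 reads in shCRX and 85 in controls for the cone arrestin ARR3 and 8 and 16 for the rod arrestin SAG. GRK1, an opsin kinase, had 6 reads in shCRX and 44 in controls, RGS9 had 12 and 7, and GRK7, the cone opsin kinase, had 0 in D425. OPN1SW, the short-wavelength cone opsin, lay between 3.05 and 7.67 CPM in shCRX and between 3.95 and 8.82 CPM in controls.

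Among channels and exchangers, CNGB1, the rod channel beta subunit, had 1.2, 0.414 and 1.28 CPM in D425 shCRX, against 3.53, 2.82 and 3.73 CPM in controls. These groups did not overlap, but the value of -1.76 ± 0.50 did not pass (adjusted p = 0.0868). CNGB3, the cone beta subunit, had 14.4, 15.5 and 9.46 CPM, against 5.49, 4.76 and 14 CPM (0.71 ± 0.44, adjusted p = 0.451), with the vector library as high as the shCRX libraries. CNGA1, the rod alpha subunit, lay between 2.48 and 5.72 CPM in shCRX and between 2.5 and 3.47 CPM in controls. CNGA3, the cone alpha subunit, had 16 reads, all in shCRX replicate 1. SLC24A1, the rod sodium, calcium and potassium exchanger, lay between 15.1 and 21.2 CPM in shCRX and between 10.7 and 20.3 CPM in controls, and its cone paralog SLC24A2 had 1 and 10 reads. KCNV2, a modulatory potassium channel subunit, had 2.03, 1.24 and 4.6 CPM in shCRX, against 6.05, 2.74 and 13.7 CPM in controls (-1.56 ± 0.60, adjusted p = 0.192).

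The visual cycle genes and the carriers were not among those that fell. ABCA4, which clears retinal from disc membranes, had 77.2, 27.7 and 66 CPM in D425 shCRX, against 19.5, 28.8 and 34.2 CPM in controls. Replicates 1 and 3 were above every control and replicate 2 was inside their range, with a log2 fold change of 1.06 ± 0.34 (adjusted p = 0.117) that was 1.36 and passed without replicate 2. The retinol dehydrogenase RDH12 had 25 reads in shCRX and 63 in controls, and RDH8 had 3 and 1. AIPL1, the chaperone of PDE6, had 363, 558 and 545 CPM in shCRX, against 474, 358 and 466 CPM in controls (0.17 ± 0.21, 95% interval -0.28 to 0.63). UNC119, a lipid-binding carrier of transducin alpha subunits, had 62.5, 58.1 and 84.7 CPM, against 47, 37.4 and 63.4 CPM (0.47 ± 0.22, adjusted p = 0.298). PDE6D, a carrier of prenylated proteins, had 20.9, 14.1 and 19.4 CPM, against 25.6, 21.3 and 23.7 CPM (-0.37 ± 0.29, adjusted p = 0.565).

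Library to library, the genes varied widely inside the D425 groups. Of the 23 with a mean of at least 5 CPM, 14 were lowest in shCRX replicate 2 and 13 were highest in replicate 3, against 37.1% and 24% of 10793 genes at that level. In controls, parental replicate 2 was lowest for 16 of 23, against 38.3% of the genes. GNB3, RCVRN and ABCA4 were among those lowest in shCRX replicate 2. Values of other cell type lists stood beside these results. Retinal pigment epithelium markers summed to 32.1, 4.55 and 19.2 CPM in D425 shCRX and 9.18, 14.3 and 21 CPM in controls, Mueller glia and astrocyte markers to between 365 and 414 CPM in shCRX and between 339 and 549 CPM in controls. The 6 rod bipolar and amacrine markers were higher in shCRX without overlap, at 9.88, 16.1 and 12 CPM, against 5.65, 7.67 and 6.54 CPM in controls, with 0 of the 4 tested genes passing. The 6 pinealocyte markers were lower without overlap, at 79.3, 186 and 138 CPM in shCRX, against 275, 278 and 229 CPM in controls. The 4 of them other than GNGT1 and GNGT2 summed to 31.3, 113 and 50.9 CPM in shCRX, against 49.7, 50.4 and 55.9 CPM in controls, with overlap. The part of these cell types in the results was not tested. SLC1A3, a glutamate transporter of the glial list, fell (-1.5 ± 0.28, adjusted p = 0.0144).

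In HD-MB03, 0 of the 31 genes passed with edgeR, against 1.51% of all genes. At an unadjusted p under 0.05 there were 5 (SAG, GNGT1, GNGT2, SLC24A2 and UNC119), a count not taken over all genes. DESeq2 called 1, UNC119, where its calls over all genes were 793. The libraries labelled shCRX all lay above the controls for 11 genes (35.5%) and all below for 6 (19.4%), against 30.5% and 21.8% of all genes. The median log2 fold change was 0.29 (all genes 0.10). It was -0.10 with the 7 genes that had 0 reads in controls set at their bound against 3 reads, on unscaled library totals. No such bounded median was taken over all genes.

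GNGT1 had 274 and 312 CPM in HD-MB03 libraries labelled shCRX, against 107 and 194 CPM in the parental and vector libraries (0.96 ± 0.33, adjusted p = 0.17). GUCA1A had 110 and 73 CPM, against 52.6 and 32.2 CPM (1.11 ± 0.73, adjusted p = 0.47), and both genes were higher in libraries labelled shCRX than in controls without overlap. GUCA1B had 19.9 and 14.3 CPM, against 17.2 and 10.7 CPM, and PDE6A 192 and 124 CPM, against 98.9 and 170 CPM, both with overlap. Lower in the libraries labelled shCRX without overlap were UNC119, with 29.9 and 33.8 CPM against 65.6 and 63.8 CPM (-1.02 ± 0.28, adjusted p = 0.0967), and GNGT2, with 6.15 and 6.52 CPM against 10.9 and 13.4 CPM (-0.94 ± 0.34, adjusted p = 0.193). SAG had 2.79 and 1.79 CPM, against 5.2 and 8.04 CPM (-1.53 ± 0.64, adjusted p = 0.248). SLC24A2 had 44 reads in libraries labelled shCRX and 0 in control libraries, which is at least 2.06-fold higher on unscaled library totals with 3 reads over the control group as the floor. The shallow controls limit this comparison, and 2 libraries against 2 cannot go below an exact permutation p of 0.333.

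**Figure D3:**
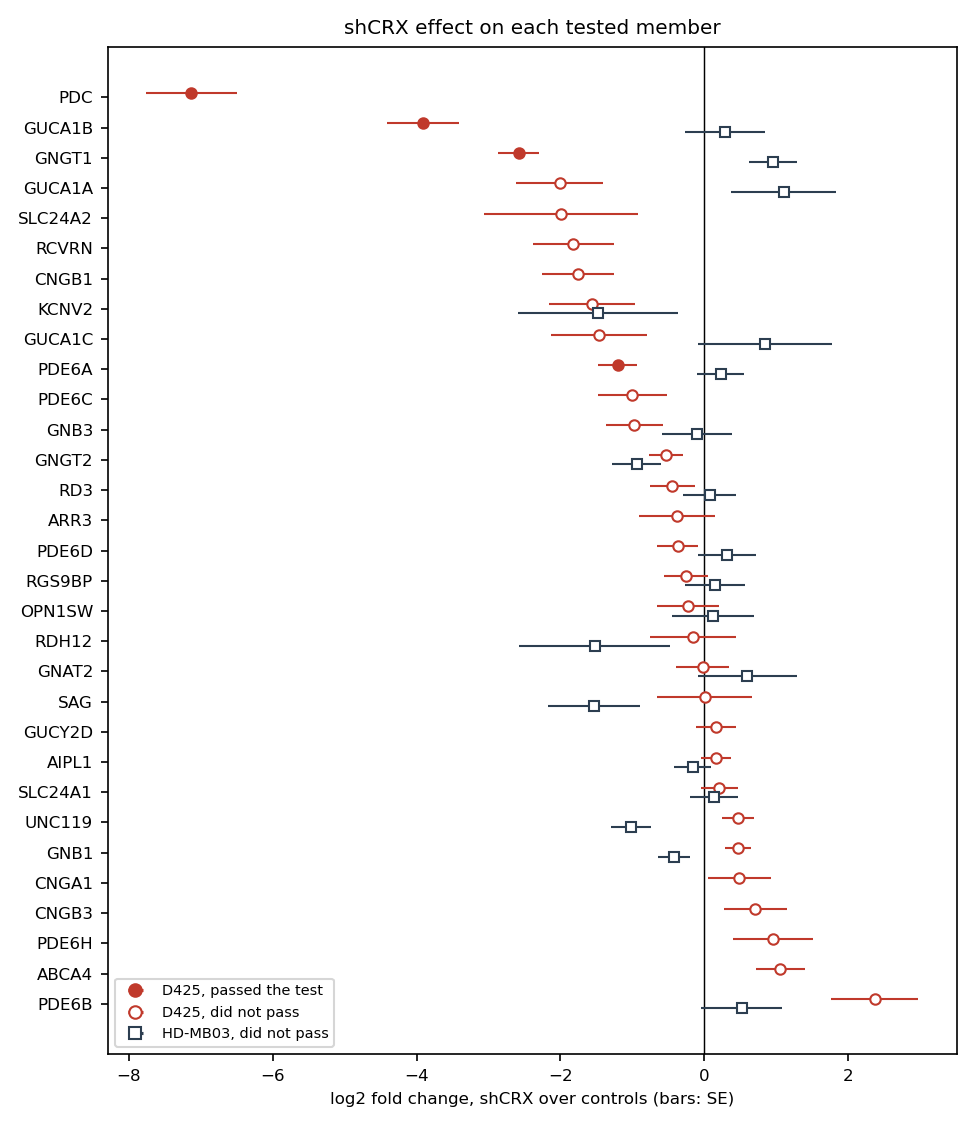
Log2 fold change (x axis, bars are SE) of each of the 31 tested genes with shCRX in D425 (circles, filled where the test passed) and in HD-MB03 (squares, shown where both arms had over 3 reads). The 4 filled points, PDC, GUCA1B, GNGT1 and PDE6A, are negative in D425, and the HD-MB03 squares for GUCA1B, GNGT1 and PDE6A lie above 0.

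The shCRX effect differed between the lines for 3 of 31 genes, against 4.16% of all genes (2.67% more positive and 1.49% more negative in D425), in a test of the difference itself (D425 minus HD-MB03). It was more negative in D425 for GNGT1 (-3.54 ± 0.44, adjusted p = 0.00129) and GUCA1B (-4.20 ± 0.74, adjusted p = 0.0102) and more positive for UNC119 (1.49 ± 0.36, adjusted p = 0.0367). With vector controls alone the count was 0, and with parental controls alone it was 1, while the calls over all genes were 53 and 238, against 666 with all controls. PDC did not pass this test (adjusted p = 0.192), with 2 reads in HD-MB03 in all. For the mean of both lines 0 of 31 passed with edgeR, against 0.225% of all genes. At an unadjusted p under 0.05 there were 6, a count not taken over all genes. DESeq2 called 4, where its calls over all genes were 369.

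Of the tested cone components, 6 of 9 had more transcript in D425 than in HD-MB03, and rod components went both ways. With both arms averaged, 20 of the 31 differed between D425 and HD-MB03, against 46.0% of all genes. In 15 (48.4%) the level was higher in D425 and in 5 (16.1%) lower, against 24.4% and 21.6% of all genes, and the median log2 fold change was 0.74 (all genes 0.05). The line and arm comparisons use the same libraries. Of the 9 tested cone genes 6 were higher in D425 and 0 lower (median 2.12). Of the 8 tested rod genes 2 were higher and 4 lower (median -0.55), and of the 14 shared genes 7 were higher and 1 lower. The count was 16 with control libraries alone (34.3% of all genes), 20 with shCRX libraries alone (32.8%), 17 within the low set of library numbers (30.7%) and 21 within the high set (31.2%).

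**Figure D4:**
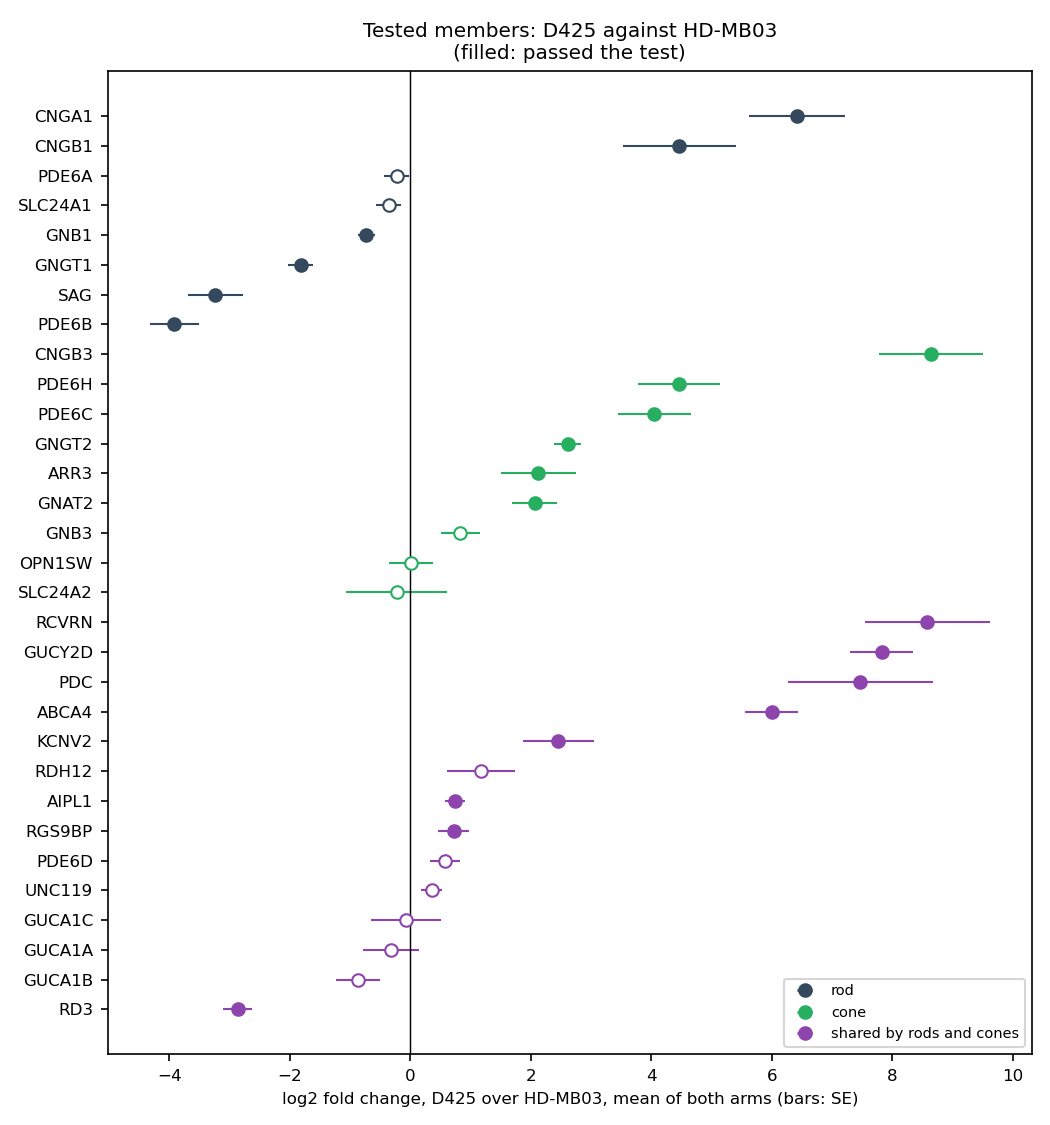
Log2 fold change (x axis, bars are SE) of D425 over HD-MB03, mean of both arms, for the 31 tested genes grouped as rod, cone and shared, filled where the test passed. The 6 filled cone genes are all positive, and 4 of the 6 filled rod genes are negative.

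Several genes were transcribed in D425 and nearly absent from HD-MB03. GUCY2D lay between 13.2 and 22.6 CPM in D425 and at 0.357 and 0.501 CPM in HD-MB03 libraries labelled shCRX, with 0 reads in HD-MB03 controls. Among shCRX libraries alone, where both lines had reads, its log2 fold change was 5.38 ± 0.44 (adjusted p = 4.31e-06). ABCA4 lay between 19.5 and 77.2 CPM in D425 and between 0.357 and 1.07 CPM in HD-MB03 (6.0 ± 0.44, adjusted p = 3.95e-07). RCVRN had 1642 reads in D425 and 4 in HD-MB03, with a log2 fold change of 5.90 ± 1.0 among shCRX libraries alone (adjusted p = 0.00134). CNGB3 had 579 reads in D425 and 1 in HD-MB03, a ratio of 318 on unscaled library totals, with a 95% counting interval of 56.9 to 12593. PDC had 3084 and 2 reads (ratio 848, interval 234 to 7002), nearly all of them in D425 controls, and CNGA1 had 212 and 3 (ratio 38.8, interval 13.1 to 190). PDC did not pass among shCRX libraries alone (2.57 ± 1.29, adjusted p = 0.152). CNGB1 also passed with both arms averaged, with 159 reads in D425 and 14 in HD-MB03, and did not pass among shCRX libraries alone (0.96 ± 0.62, adjusted p = 0.26). At very low level in both lines, the untested GRK1 had 50 reads in D425 and 2 in HD-MB03.

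Besides CNGB3, 5 of the 9 tested cone genes were higher in D425. GNGT2 lay between 32.9 and 71.4 CPM in D425 and between 6.15 and 13.4 CPM in HD-MB03 (2.61 ± 0.22, adjusted p = 9.97e-07). PDE6C (4.05 ± 0.61), PDE6H (4.46 ± 0.68), ARR3 (2.12 ± 0.62) and GNAT2 (2.06 ± 0.38) passed in the same direction without overlap. Over all 31 tested genes, 11 (35.5%) were higher in D425 without overlap, against 15.3% of all genes. ARR3 lost its call in 4 of 21 alternatives, among them without the HD-MB03 parental library (1.64), and the reads of GNAT2 are uncertain, as above. The other cone genes did not pass. GNB3 overlapped between the lines (0.83 ± 0.32, adjusted p = 0.0533), and SLC24A2, with 11 reads in D425 and 44 in HD-MB03, was at -0.23 ± 0.84 and passed as lower in D425 among shCRX libraries alone (-4.66). OPN1SW did not separate the lines, with 3.05 to 8.82 CPM in D425 and 3.75 to 7.81 CPM in HD-MB03 (0.01 ± 0.36, 95% interval -0.77 to 0.79). Higher in D425 among shared genes were KCNV2 (2.45 ± 0.59, but 0.93 and not passing within the low set of library numbers), AIPL1 (0.74 ± 0.17, but 0.57 and not passing among controls alone) and RGS9BP (0.72 ± 0.26). RGS9BP lost its call in 15 of 22 alternatives.

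The genes higher in HD-MB03 were few. RD3 had 47.4 to 109 CPM in D425 and 405 to 641 CPM in HD-MB03 (-2.87 ± 0.24, adjusted p = 1.67e-06). PDE6B had 0.0909 to 2.05 CPM and 6.77 to 12.8 CPM (-3.92 ± 0.41, adjusted p = 8.5e-06), and SAG 0.161 to 0.727 CPM and 1.79 to 8.04 CPM (-3.24 ± 0.46, adjusted p = 0.000115). These 3 (9.68% of the 31) did not overlap between the lines, against 13.8% of all genes that were lower in D425 without overlap. GNB1 was also lower in D425 (-0.73 ± 0.14, adjusted p = 0.00105), but did not pass among shCRX libraries alone (-0.28 ± 0.20). GNGT1 passed with both arms averaged (-1.82 ± 0.21), but its log2 fold change was -0.05 ± 0.30 among controls alone and -3.59 ± 0.31 among shCRX libraries alone, so the difference between the lines lay in the shCRX libraries.

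Per length, the leading genes of the group differed by line. On the scale of CPM per kilobase of exon, AIPL1 led in D425, at 123 ± 27.4 in shCRX and 109 ± 16.3 in controls (SD, n = 3 each), above the level of 98.6% and 98.2% of all tested genes. In HD-MB03 libraries labelled shCRX, RD3 (129 ± 1.48) and GNGT1 (124 ± 11.5) stood highest, and in HD-MB03 controls RD3 (123 ± 39) and GNB1 (97.7 ± 14.4), each pair within its spread (SD, n = 2 each). In D425 controls GNB3 (89.6 ± 7.97) followed AIPL1, with SD ranges that overlapped. GNGT1 (61.3 ± 7.86) and PDC (53 ± 24.6) came next, within their spread. In D425 shCRX the next were GNB1 (59.9 ± 10.8) and GNB3 (45.6 ± 26.9), also within their spread, and PDC stood 27th, at 0.311 ± 0.282. The rod genes without GNB1 summed to between 18.7 and 30.3 CPM per kilobase in D425 shCRX and between 84.3 and 94.7 in D425 controls, and to 148 and 154 in HD-MB03 libraries labelled shCRX and 63.1 and 110 in HD-MB03 controls. The cone genes, with GNB3 kept in, summed to between 60.9 and 157 in D425 shCRX and between 145 and 173 in D425 controls. In all HD-MB03 libraries they summed to between 46.7 and 55.9. In D425 controls the rod sum, with a mean of 90, held mostly GNGT1 (61.3) and PDE6A (25.4). It does not show a fall of rod genes in general. With shCRX in D425 the median log2 fold change was 0.11 over the 8 tested rod genes and -0.38 over the 9 tested cone genes.

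The balance of rod and cone paralogs was taken within each library as the log2 ratio of CPM plus 0.5, for 5 pairs in 15 comparisons, with exact two-sided permutation tests adjusted over the 15. The ratio was lower in D425 than in HD-MB03 for GNGT1 over GNGT2, at 0.15 ± 1.13 in D425 and 4.47 ± 1.13 in HD-MB03 (SD, n = 6 and 4). It was lower for PDE6A over PDE6C, at 3.71 ± 0.55 and 7.0 ± 0.59, for SAG over ARR3, at -1.36 ± 0.21 and 2.31 ± 1.23, and for CNGB1 over CNGB3, at -2.13 ± 1.40 and 0.45 ± 0.52. None of the 4 overlapped between the lines, and each had an exact permutation p of 0.00952, the smallest that 6 libraries against 4 allow (adjusted p = 0.0357). GNB1 over GNB3 was at 0.69 ± 1.30 in D425 and 2.12 ± 0.19 in HD-MB03, with overlap (exact permutation p = 0.0571, adjusted p = 0.167). For 3 of these pairs the size of the ratio depends on the added 0.5 CPM. CNGB1 and CNGB3 both had 0 reads in the HD-MB03 controls, so the added 0.5 CPM alone set their ratio at 0.00 there. For this pair the lack of overlap and the permutation p therefore rest in part on that constant. In HD-MB03 libraries labelled shCRX, CNGB1 had 14 reads and CNGB3 had 1. PDE6C and ARR3 had 0 or 1 read in each HD-MB03 control library, and SAG lay between 0.161 and 0.727 CPM in D425. GNGT1 and GNGT2 had at least 6.15 CPM in every library. No ratio was taken for GNAT1 and GNAT2, PDE6G and PDE6H, CNGA1 and CNGA3, or SLC24A1 and SLC24A2. Among these, the cone forms GNAT2 and PDE6H were higher in D425, but so was the rod form CNGA1. CNGA1 had 212 reads in D425 and 3 in HD-MB03, and its cone form CNGA3 had 16 and 0. A lower ratio of rod to cone forms in D425 therefore does not hold for every pair.

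**Figure D5:**
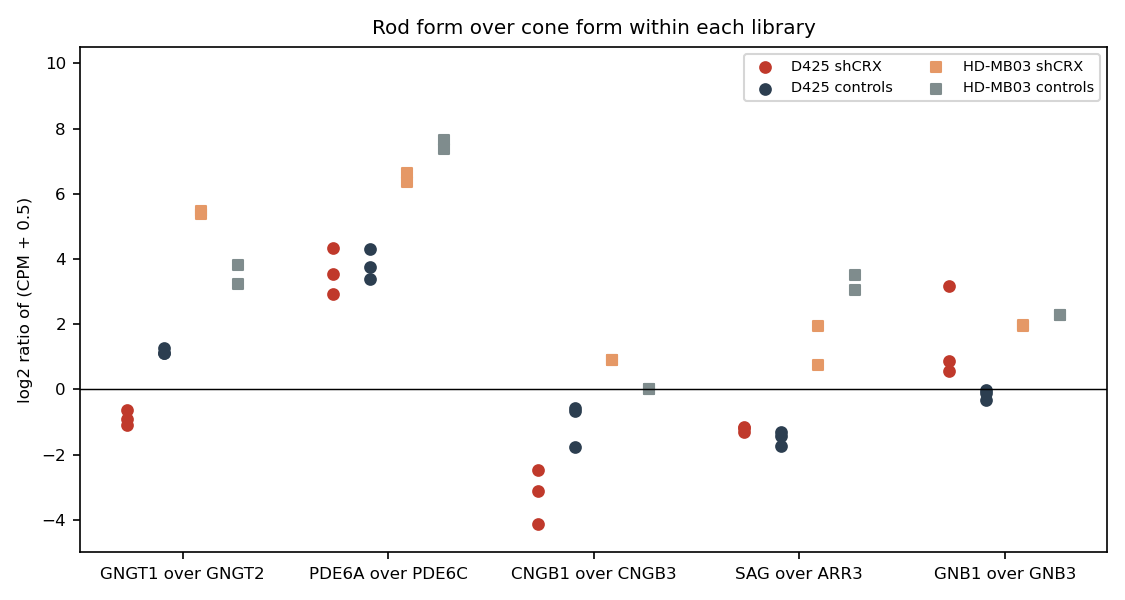
Log2 ratio of CPM plus 0.5 of the rod form over the cone form (y axis) for 5 gene pairs, with a point per library by line and arm. D425 lies below HD-MB03 for the first 4 pairs, and the D425 shCRX libraries lie below the D425 controls for GNGT1 over GNGT2 and above them for GNB1 over GNB3.

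Within D425, GNGT1 over GNGT2 was -0.87 ± 0.24 in shCRX and 1.17 ± 0.10 in controls (SD, n = 3 each), a difference of -2.05. Per kilobase of exon, GNGT1 and GNGT2 stood at 10.4 and 26.5 CPM in shCRX and at 61.3 and 38.1 CPM in controls. CNGB1 over CNGB3 was -3.25 ± 0.83 in shCRX and -1.0 ± 0.67 in controls, and PDE6A over PDE6C was 3.61 ± 0.70 in shCRX and 3.81 ± 0.47 in controls. Other pairs went the opposite way, with GNB1 over GNB3 at 1.54 ± 1.43 in shCRX and -0.15 ± 0.16 in controls and SAG over ARR3, at few reads, at -1.22 ± 0.07 and -1.5 ± 0.22. All pairs but PDE6A over PDE6C were without overlap, 2 lower and 2 higher in shCRX. These 4 reached the smallest exact permutation p that 3 libraries against 3 allow, 0.1, so the design cannot take this comparison below 0.05.

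Further genes of retinoid metabolism and phototransduction were counted from a separate list of 38 names, of which 36 had a row and 23 were tested. In D425 0 of 23 passed with shCRX (median 0.16), and in HD-MB03 0 of 23 (median -0.27). ARRB1, a widely used beta-arrestin, had a shCRX effect more positive in D425 than in HD-MB03 (2.49 ± 0.56, adjusted p = 0.0283), with 42.9 ± 10.9 and 28.3 ± 9.8 CPM in D425 shCRX and control libraries and 2.11 ± 0.661 and 7.93 ± 0.914 CPM in HD-MB03 (SD). Between the lines 7 of 23 were higher in D425 and 5 lower, close to the 24.4% and 21.6% of all genes. Those higher included RDH11, STRA6, ARRB1, RP2, BCO1, which cleaves beta-carotene (5.66 ± 0.33, adjusted p = 4.47e-08), and RETSAT, which saturates retinol (1.20 ± 0.17, adjusted p = 0.000123). Those lower included ARL2, DHRS3, a retinal reductase (-3.97 ± 0.64, adjusted p = 0.000311), and the opsin OPN3 (-3.81 ± 0.31, adjusted p = 9.57e-07).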

How the data were processed

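Each library has 1 deposited file of raw gene counts. The submitters' processing notes list HISAT2, bcl2fastq, HTSeq and DESeq2, and the builds GRCh37 and hg19. Tool versions, roles and strand setting are not given in the sources used here. Of 57820 gene identifiers 51996 matched a symbol in the GENCODE annotation of build GRCh38, which also gave exon lengths and overlaps. The 5 summary entries were left out, and genes took 50.5% to 79.3% of the reads.

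The tests were run with edgeR 4.0.16 in R 4.3.3 (TMM scaling, filterByExpr, robust quasi-likelihood fit of 4 group means with 6 residual degrees of freedom, two-sided tests, Benjamini-Hochberg adjustment over all 16006 genes, threshold 0.05). The biological coefficient of variation was 26%. Alternatives used DESeq2 1.42.0 and limma 3.58.1. Exact permutation tests used scipy 1.17.1. Fits were tested on simulated data. Counting intervals at 95% and floors of 3 counts use unscaled library totals and cover counting error alone. The members, gene lists and alternatives were chosen with earlier results of these data known. Named genes were all members, with full values for those that passed a test or had a group mean of at least 5 CPM, and, of other lists, some of those that passed.

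No pair of libraries was identical (0 pairs), and chi-square per degree of freedom was 9.23 to 52.8 within groups. No label names separate cultures behind the replicates, so the p-values reflect only the spread among these libraries, and that spread may be technical.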

Additional observations from a re-analysis of the deposited data

Results flagged for a closer look

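The shCRX effect differed between the lines for 3 of the 31 tested phototransduction genes, against 4.16% of all genes, and for the targeted gene. This is by the edgeR test of the difference (D425 minus HD-MB03). The difference was -3.54 ± 0.44 on the log2 scale for GNGT1, whose mean was 24.6 CPM in D425 shCRX, against 145 CPM in D425 controls, and 293 CPM in HD-MB03 libraries labelled shCRX, against 150 CPM in HD-MB03 controls. For GUCA1B it was -4.20 ± 0.74, with 2.4 and 32.7 CPM in D425 shCRX and controls and 17.1 and 13.9 CPM in HD-MB03 libraries labelled shCRX and controls. UNC119 had a difference of 1.49 ± 0.36, with 68.4 and 49.3 CPM in D425 shCRX and controls and 31.9 and 64.7 CPM in HD-MB03. CRX itself had a difference of -2.14 ± 0.45, with 22.2 and 47.4 CPM in D425 shCRX and controls and 25.6 and 12.4 CPM in HD-MB03, where the direction is against the label. The CRX difference lost its call in 8 of 22 alternatives, with values from -2.64 to -1.84. Depth and library number move with these arms in opposite ways in the 2 lines, and their part in the differences cannot be told apart from that of the hairpin.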

How the results depend on the processing

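The number of phototransduction genes that passed in D425 (4 as reported) was 10 with no filter on low counts, 9 of the 31 and CNGA3, whose 16 reads are in 1 library, and 2 with vector controls alone, where the calls over all genes were 15, against 476. It was 3 to 5 when a library was left out and 4 at equal depth. In HD-MB03 (0) it was 1 with DESeq2 and 2 with no filter, and 0 with any library left out. For the mean of both lines (0) it was 4 with DESeq2, 3 with no filter and 1 with the trend on GC content and length removed, and 0 to 1 when a library was left out. For the difference between the lines (3) it was 6 with DESeq2, 6 with no filter, 1 with parental and 0 with vector controls alone, and 2 to 3 when a library was left out. Between the lines (20) it was 18 to 22 when a library was left out and 16 at equal depth. The calls over all genes moved as well (value as reported in brackets). With no filter they were 1211 in D425 (476), 790 in HD-MB03 (241), 405 for the mean (36) and 1579 for the difference (666). With DESeq2 they were 793 in HD-MB03, 369 for the mean and 1358 for the difference. At equal depth they were 320 in D425 and 5591 between the lines (7365). Of the 10 genes that passed in D425 with no filter, 7 were lower and 3 higher. The cause of these changes was not tested. With an HD-MB03 library left out, the lone library of its arm was assumed to vary like the other groups.

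Of 3420 recomputed values of single genes, 3282 stayed on their side of the threshold, 3109 of them with the same sign and 173, none of them a call, with the other sign. A further 76 lost a call, 61 gained one and 1 reversed. That was CRX in D425 against HD-MB03, at -0.21 with shCRX libraries alone. The D425 calls of PDC (-8.20 to -6.73) and GNGT1 (-2.94 to -2.32) were kept in all 22 alternatives, and that of GUCA1B was lost with vector controls alone (-4.12). UNC119 lost the difference in 12 of 22, with values from 1.08 to 1.73, among them the removal of the GC and length trend (1.12).

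D425 parental and shCRX replicates 1 and 2 have only a number in common (correlation of their deviations 0.0329 over 12770 genes). With the replicate block on these libraries 4 genes passed in D425, 3 for the difference and 0 for the mean of both lines. PDE6A was lost (-1.32) and GUCA1A gained (-3.06), as in the same libraries with no block (-1.30 and -3.10). The trend on GC content and length, and this unblocked fit, were chosen after seeing the data. Depth limits HD-MB03 most, where 3 counts are 1.53 CPM in the vector library.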

Other observations

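Among 16 photoreceptor transcription factors, of which 10 were tested, SAMD11, a transcriptional regulator transcribed in photoreceptors, rose in D425 with shCRX, at 240 ± 85.5 CPM in shCRX and 27 ± 13.1 CPM in controls (SD, n = 3 each; log2 fold change 3.15 ± 0.42, edgeR adjusted p = 0.00323). CRX was the only other of the 10 that passed there, against 2.97% of all genes in either direction. Between the lines 3 of the 10 were higher in D425 (CRX, THRB and RAX2), against 24.4% of all genes. A further 3 were lower (NRL, NEUROD1 and MEF2D), against 21.6% of all genes. CRX was not higher among shCRX libraries alone (-0.21). NRL, the factor that sets rod identity, was lower in D425 (-2.86 ± 0.36, adjusted p = 7.48e-05), at 35.9 and 37.4 CPM in D425 shCRX and controls and 210 and 334 CPM in HD-MB03 libraries labelled shCRX and controls. THRB, a thyroid hormone receptor of cones, was higher in D425 (1.80 ± 0.30, adjusted p = 0.000369), as was RAX2, a homeodomain factor, at 8.18 and 19 CPM in D425 shCRX and controls and 0.0357 and 0 CPM in HD-MB03 libraries labelled shCRX and controls. The neuronal factor NEUROD1 (-1.99 ± 0.37) and MEF2D (-1.83 ± 0.15) were lower. Of the Group 3 medulloblastoma markers, IMPG2, a matrix proteoglycan of photoreceptors, fell in D425 with shCRX (-0.92 ± 0.21, adjusted p = 0.0387), at 457 ± 103 and 863 ± 124 CPM, and GABRA5, a GABA receptor subunit, fell by 1.85 on the log2 scale (SE 0.29, adjusted p = 0.00545).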
